A study of Mus musculus with 9 samples.

Results

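The leukocyte beta2 integrins were followed in the substantia nigra, the midbrain region that holds dopaminergic neurons, of wild-type C57BL/6 mice. The family was taken by gene symbol as Itgad, Itgam, Itgax, Itgal and Itgb2. Of these 5 genes 4 had a row among the 20591 rows of the deposited count table, and those 4 were among the 20535 genes left by a filter on low counts. Itgax had no row and is not analysed here. Every group had a sham operation, was 12 weeks old at the start and comprised 3 libraries. The control mice ate ad libitum for 1 week, a second group was fasted for 1 day, and the last group had 3 fasts in 1 week, here called the 1 week group. A single fast ran for 24 hours from 2 hours before lights off, while ad libitum mice changed cages at those times. The time between the last fast and sampling, and whether a library stands for 1 animal, are not given, so a p-value here covers the spread of libraries, which may in part be technical.

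Integrins are cell surface receptors made of an alpha and a beta chain, and the beta2 chain, encoded by Itgb2 and known as CD18, is made almost solely by leukocytes. It pairs with the product of Itgal (CD11a) on lymphocytes and most other leukocytes, of Itgam (CD11b) on microglia, monocytes and neutrophils, of Itgax (CD11c) on dendritic cells and activated microglia, or of Itgad (CD11d) on subsets of macrophages. The pairs bind adhesion molecules, fibrinogen and complement fragments, and they need a signal from inside the cell before they hold on to a ligand. In healthy brain tissue microglia are the main source of Itgam and Itgb2 transcripts.

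The genes were chosen by a measured value of Itgad, whose log2 fold change between the 1 week and the ad libitum group had passed the test across all genes in an earlier look at this table. The values of Itgad are therefore a description, in the other comparisons too, since these share libraries with that one. The other genes joined it as chains of the same receptors and not by their values.

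Sequence likeness bears on how reads were divided between the alpha genes, so the stretches in which Itgad most resembles its relatives are shown first. In GENCODE M21 (GRCm38) 17.5% of the 4536 different words of 31 bases in Itgad transcripts also occur in another gene, and 11.3% occur in Itgax. The longest identical coding run of this pair was 188 bases, and it stands in capitals below within its flanks, at coding bases 1279 to 1556 of Itgad and 1156 to 1433 of Itgax.
Itgad: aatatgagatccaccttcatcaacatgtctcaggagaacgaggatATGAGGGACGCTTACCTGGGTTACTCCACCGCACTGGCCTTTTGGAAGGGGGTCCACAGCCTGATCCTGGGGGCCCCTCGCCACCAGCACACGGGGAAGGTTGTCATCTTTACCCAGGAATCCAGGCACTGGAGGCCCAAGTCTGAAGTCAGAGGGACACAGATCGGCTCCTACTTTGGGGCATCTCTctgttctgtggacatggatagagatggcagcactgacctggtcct
Itgax: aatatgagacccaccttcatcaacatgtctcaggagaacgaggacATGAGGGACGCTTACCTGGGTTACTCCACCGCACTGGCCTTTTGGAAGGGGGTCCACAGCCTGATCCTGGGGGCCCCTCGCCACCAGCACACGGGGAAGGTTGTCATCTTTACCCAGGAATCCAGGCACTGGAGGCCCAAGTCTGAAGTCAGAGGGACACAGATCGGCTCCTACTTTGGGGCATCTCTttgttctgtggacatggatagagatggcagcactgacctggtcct
A read that falls wholly inside that run cannot be given to either gene by its sequence. As Itgax had no row, reads that the run may have moved between these genes cannot be counted here.

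The longest run shared by the coding sequences of Itgad and Itgam was 16 bases. It stands in capitals within coding bases 437 to 542 of Itgad and 416 to 521 of Itgam, in the part that encodes the metal-binding site of the ligand-binding inserted domain.
Itgad: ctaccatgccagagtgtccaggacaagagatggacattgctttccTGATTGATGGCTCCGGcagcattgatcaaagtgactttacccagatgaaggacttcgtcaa
Itgam: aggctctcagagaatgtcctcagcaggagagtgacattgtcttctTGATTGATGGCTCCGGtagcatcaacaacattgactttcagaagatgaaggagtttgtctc
No word of 31 bases is therefore common to these coding sequences. Itgam shares 67.2% of its 5090 words with Gm49368, a gene model that spans it on the same strand and has no row in the table, so the Itgam counts are uncertain in that respect. Itgal shares 1 word of 6590 with another gene, and Itgb2 shares 2.28% of 3163.

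Library totals ran from 36109995 to 54248856 counts. Levels are given as CPM, which are counts scaled to the library total with TMM factors, so that 1 CPM stands for 34.6 to 55.5 reads. The second 1 day replicate and the second 1 week replicate differed most from their groups, with quality weights of 0.213 and 0.507 where the other 7 libraries had 0.972 to 1.93. Slc17a7, which marks cortical glutamatergic neurons, reached 501 CPM in the third 1 week replicate and 4.31 to 49.2 CPM elsewhere. Ttr, which marks choroid plexus, reached 335 CPM in the third ad libitum replicate and 2.61 to 35.5 CPM elsewhere. Th, which marks dopaminergic neurons, was present in all 9 libraries at 76.1 to 296 CPM.

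Itgad (ENSMUSG00000070369) was the alpha gene with a higher level in both fasted groups. Its level was 0.702, 0.897 and 0.693 CPM in ad libitum replicates 1, 2 and 3, on 29, 31 and 32 reads. It was 3.10, 1.27 and 2.95 CPM in the 1 day replicates, on 149, 49 and 128 reads, and 3.26, 4.20 and 6.42 CPM in the 1 week replicates, on 181, 154 and 278 reads. Each 1 day library lay above all ad libitum libraries and each 1 week library above all 1 day libraries, and the second 1 day replicate was nearest to the ad libitum range. Of all genes tested 0.341% were separated in that order. The group means were 0.764 ± 0.115, 2.44 ± 1.02 and 4.63 ± 1.62 CPM (SD, n = 3).

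**Figure D1:**
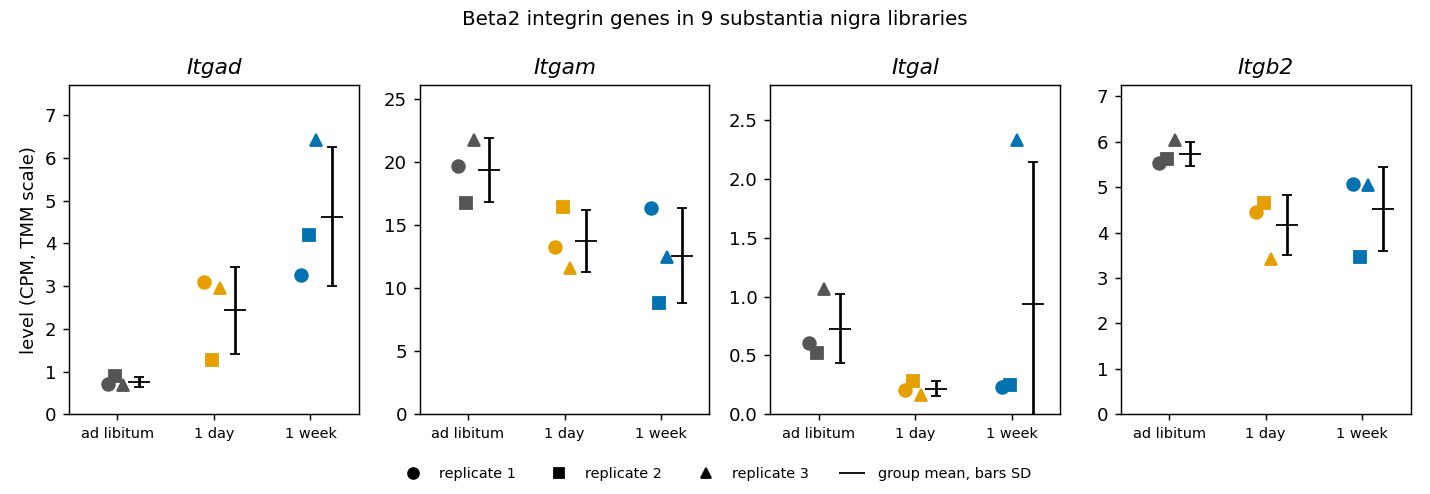
Level of each measured beta2 integrin gene (vertical axis, CPM on the TMM scale, a separate scale per gene) in the 9 libraries by group (horizontal axis), with a mark per replicate, dashes for group means and bars for the SD (the lower bar of Itgal after 1 week is cut at 0). Itgad runs from 0.693 CPM in the lowest ad libitum library to 6.42 CPM in the highest 1 week library, and Itgal is high in 1 of the 1 week libraries.

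In edgeR's quasi-likelihood fit the log2 fold change of Itgad against ad libitum was 1.68 (SE 0.37) after 1 day and 2.60 (SE 0.38) after 1 week, with the same 3 control libraries in both. Between 1 week and 1 day it was 0.92 (SE 0.35). As folds these were 3.20, 6.06 and 1.89. The difference between the fasted groups was 0.61 without 1 week replicate 3, 0.62 without 1 day replicate 2 and 0.57 under limma's voom with quality weights, and it reached 1.13 without 1 day replicate 1.

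After 1 week, Itgad was the 1 of 4 measured genes past an adjusted p of 0.05, and it is the gene by which the family was chosen. In that comparison 0.307% of all genes passed, 0.253% higher and 0.0536% lower. At an unadjusted p under 0.05 there was 1 higher and 1 lower of the 4, where 11.2% of all genes were counted in either direction. The edgeR call of Itgad did not hold in every fit without 1 library. It ended without ad libitum replicate 1, 2 or 3 (edgeR adjusted p = 0.187, 0.127 and 0.180), without the first 1 day replicate (0.0526) and without 1 week replicate 2 or 3 (0.0749 and 0.0839). Calls over all genes fell in these fits too, from 63 to 8, 11, 9, 30, 22 and 17 in the same order. Without 1 day replicate 2 or 3 or 1 week replicate 1, where Itgad stayed called, they were 121, 87 and 96. DESeq2 and limma's voom with quality weights also called Itgad after 1 week (adjusted p = 1.86e-08 and 0.00480). The log2 fold change of Itgad stayed between 2.29 and 2.80 in the 9 edgeR fits without 1 library.

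After 1 day 0 of 4 genes passed by edgeR, where 0.0584% of all genes passed, 0.0536% higher and 0.00487% lower. At an unadjusted p under 0.05, which 9.27% of all genes reached, Itgad was higher and Itgam and Itgb2 were lower. DESeq2 and limma's voom with quality weights each called Itgad there, with adjusted p = 0.00423 and 0.0422, while the adjusted p over 17 alternative fits ran from 0.00423 to 0.817. Between 1 week and 1 day 0 of 4 genes passed by edgeR, DESeq2 or voom, and 0% of all genes passed by edgeR. Itgad and Itgal had an unadjusted p under 0.05 there, both higher, where 5.22% of all genes did.

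**Figure D2:**
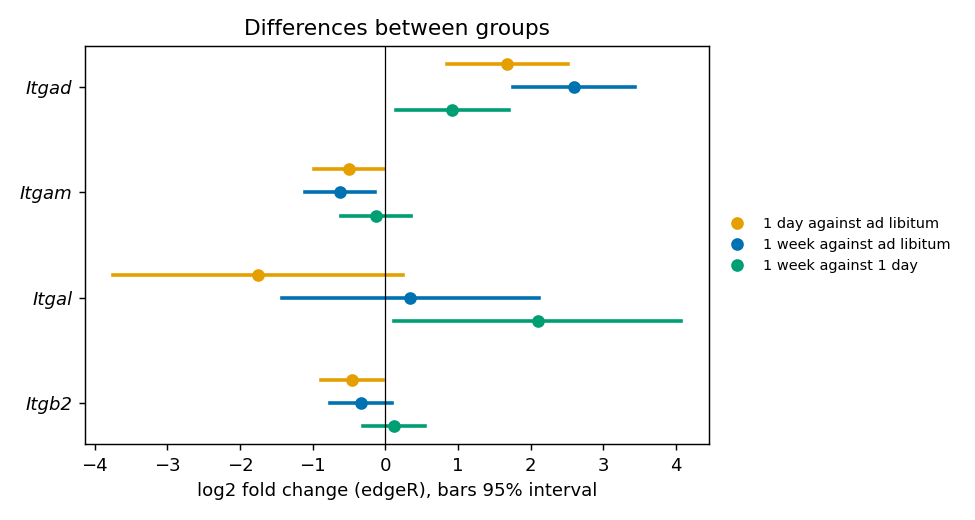
Differences between groups for each gene on the log2 scale (horizontal axis), from the edgeR fit to all 9 libraries, with points for estimates and bars for 95% intervals, coloured by comparison. The points of Itgad lie at 1.68, 2.60 and 0.92, and those of Itgam and Itgb2 lie below 0 in both comparisons with ad libitum.

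Itgam (ENSMUSG00000030786), the alpha chain by which microglia are commonly stained, lay on the other side. It was at 19.7, 16.7 and 21.8 CPM in the ad libitum replicates 1, 2 and 3, at 13.2, 16.4 and 11.6 CPM in the 1 day replicates and at 16.4, 8.84 and 12.5 CPM in the 1 week replicates. All fasted libraries lay below all ad libitum libraries, by a narrow margin in the second 1 day and the first 1 week replicate, and the fasted groups overlapped. The log2 fold change was -0.50 (SE 0.22, 95% interval -0.98 to -0.01, edgeR adjusted p = 0.532) after 1 day. After 1 week it was -0.62 (SE 0.22, 95% interval -1.11 to -0.14, edgeR adjusted p = 0.320). Neither passed, and the 1 week estimate ran from -0.86 without the first 1 week replicate to -0.42 without the second. On simulated counts edgeR recovered 5.97% of 1.5-fold changes in each comparison with ad libitum. A true change of about that size would thus mostly not pass, for Itgam and for Itgb2 below.

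Itgb2 (ENSMUSG00000000290), the common beta chain, was at 5.55, 5.61 and 6.04 CPM in the ad libitum replicates, at 4.45, 4.65 and 3.41 CPM in the 1 day replicates and at 5.07, 3.46 and 5.06 CPM in the 1 week replicates. Again the fasted libraries lay below the ad libitum libraries and overlapped each other. The log2 fold change was -0.46 (SE 0.19, 95% interval -0.89 to -0.03, edgeR adjusted p = 0.530) after 1 day. After 1 week it was -0.34 (SE 0.19, 95% interval -0.77 to 0.09, edgeR adjusted p = 0.575), so neither passed, and without the second 1 week replicate it was -0.17.

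Itgal (ENSMUSG00000030830), the alpha chain of lymphocytes, had the fewest reads, 7 to 101 per library. It was at 0.605, 0.521 and 1.06 CPM in the ad libitum replicates, at 0.208, 0.284 and 0.161 CPM in the 1 day replicates and at 0.234, 0.245 and 2.33 CPM in the 1 week replicates. The 1 day libraries lay below the ad libitum libraries, and the 1 week group held low values and the highest of all. That highest value came from the library with 501 CPM of Slc17a7, and the next came from the library with 335 CPM of Ttr. The part of cortical or choroid plexus RNA in the level of Itgal was not tested. The log2 fold change was -1.75 (SE 0.89, 95% interval -3.75 to 0.24, edgeR adjusted p = 0.552) after 1 day. After 1 week it was 0.35 (SE 0.79, 95% interval -1.42 to 2.11, edgeR adjusted p = 0.908), and without the third 1 week replicate it was -1.60 (adjusted p = 0.357). Between 1 week and 1 day it was 2.10 (SE 0.88, edgeR adjusted p = 0.853) and 0.14 without that library.

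After 1 day, Itgad was separated upward and Itgam, Itgal and Itgb2 downward, where 8.17% and 10.3% of all genes were. After 1 week Itgad was separated upward and Itgam and Itgb2 downward, where 10.9% and 11.5% were. Between the fasted groups Itgad was separated upward and the other 3 overlapped, where 4.5% of all genes were separated upward and 3.28% downward.

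Levels were compared between genes per kb of reference transcript. In ad libitum mice Itgam stood at 5.24 ± 0.683 CPM per kb, Itgb2 at 1.93 ± 0.0913, Itgad at 0.193 ± 0.0290 and Itgal at 0.161 ± 0.0642 (SD, n = 3). The ranges of Itgad (0.175 to 0.226) and Itgal (0.115 to 0.234) overlapped there, and the other neighbours in this order did not. After 1 day the means were 3.71 ± 0.659 for Itgam, 1.40 ± 0.223 for Itgb2, 0.615 ± 0.257 for Itgad and 0.0480 ± 0.0137 CPM per kb for Itgal, with no overlap between neighbours. After 1 week Itgam stood at 3.39 ± 1.02 CPM per kb, above Itgb2 in all libraries. Itgb2 (1.17 to 1.71) and Itgad (0.823 to 1.62) then overlapped, and Itgal (0.0517 to 0.515) lay below both.

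Of the sum of the 3 measured alpha genes on that scale, Itgam made up most in every library. The share of Itgad was 3.15%, 4.65% and 2.78% in ad libitum replicates 1, 2 and 3. It was 17.7%, 6.63% and 19.0% in the 1 day replicates and 15.5%, 30.3% and 29.5% in the 1 week replicates. Both fasted groups lay above the ad libitum group and overlapped each other. These shares leave out Itgax and rest on 1 reference transcript per gene.

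**Figure D3:**
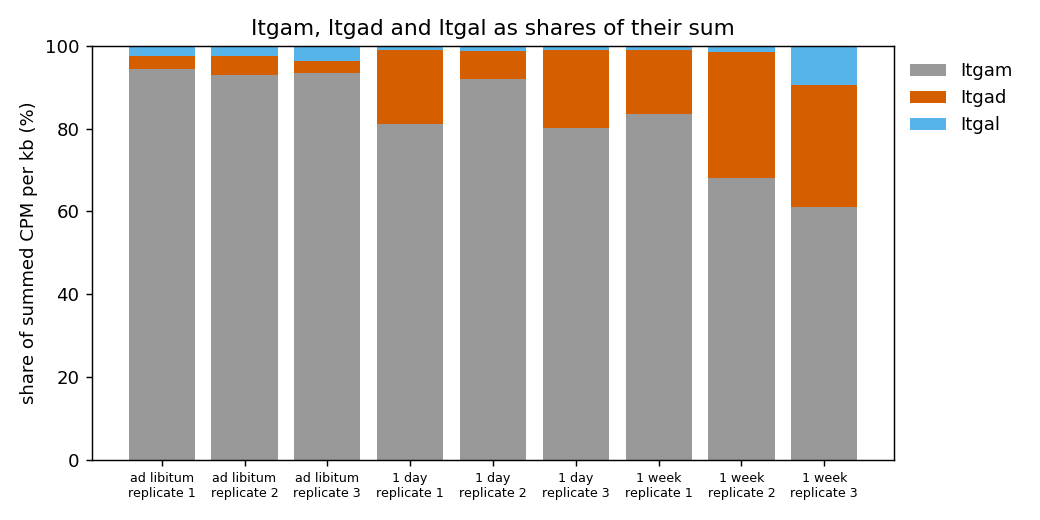
Itgam, Itgad and Itgal as percent of their summed CPM per kb of transcript (vertical axis) in each library (horizontal axis), as stacked bars. The Itgad part is at most 4.65% in ad libitum libraries and reaches 30.3% in the second 1 week replicate, and Itgal reaches 9.36% in the third.

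In bulk tissue fewer cells of a type and less RNA per cell cannot be told apart, so ratios within a library were also read, which do not depend on the scaling. Itgb2 relative to the summed level of 18 microglia markers was 0.0115 to 0.0119 in ad libitum libraries, 0.00995 to 0.0133 after 1 day and 0.0107 to 0.0115 after 1 week. On the log2 scale its mean differed from ad libitum by -0.03 and -0.07, so Itgb2 stayed in near proportion to the markers. The mean of Itgam relative to those markers differed by -0.06 and -0.37. Itgad did not keep that proportion.

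The ratio of Itgad to Itgb2 was 0.127, 0.160 and 0.115 in the ad libitum replicates, 0.696, 0.272 and 0.865 in the 1 day replicates and 0.644, 1.21 and 1.27 in the 1 week replicates. Both fasted groups lay above the ad libitum group, and the first 1 week replicate lay within the 1 day range. The mean log2 ratio differed from ad libitum by 2.05 after 1 day and 2.91 after 1 week. Relative to Itgam the difference was 2.08 and 3.21, and relative to the microglia markers 2.01 and 2.85. Itgam relative to Itgb2 was 2.98 to 3.60, 2.98 to 3.53 and 2.46 to 3.23 in the 3 groups, which overlapped.

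**Figure D4:**
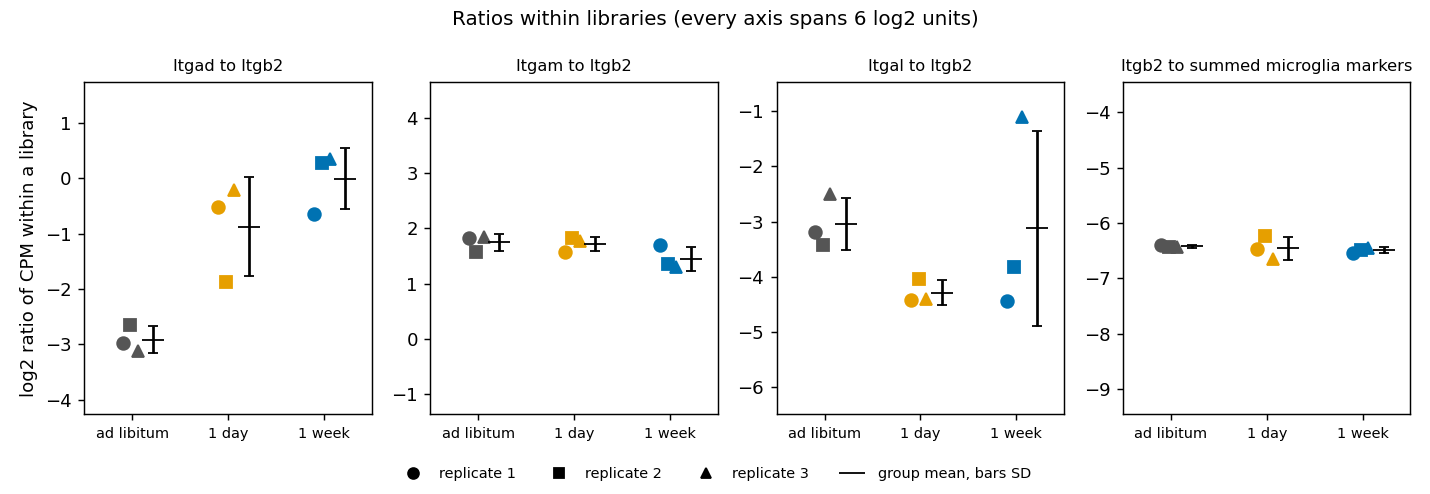
Ratios of CPM within a library on the log2 scale (vertical axes, each spanning the same number of log2 units) by group (horizontal axis), with a mark per replicate, dashes for means and bars for the SD. Itgad to Itgb2 lies at -3.12 to -2.65 in ad libitum libraries and at -0.63 to 0.34 after 1 week, while Itgb2 to microglia markers lies between -6.65 and -6.24 in all 9.

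Markers of microglia had lower levels beside Itgam and Itgb2, and so had markers of oligodendrocytes. The 18 markers summed to 466 to 522 CPM in the ad libitum group, 343 to 395 CPM after 1 day and 309 to 473 CPM after 1 week. Of the 18, 17 had a negative log2 fold change after 1 day and 17 after 1 week, with medians of -0.51 and -0.27, where the medians of all genes were 0.00041 and -0.0013. Of all genes 9.27% after 1 day and 11.2% after 1 week had an unadjusted p under 0.05. Of the 18 markers 9 and 4 did, all lower, and 0 passed by edgeR in either comparison. DESeq2 and voom each called 1 in both comparisons, Fcrls, a microglial Fc receptor-like gene, which is named after its values were seen. Fcrls was at 10.9 ± 0.189, 5.26 ± 0.448 and 5.31 ± 1.52 CPM in the ad libitum, 1 day and 1 week groups (DESeq2 adjusted p = 0.000383 after 1 day and 0.000282 after 1 week).

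In the same order of groups, Cx3cr1, the fractalkine receptor, was at 41.0 ± 3.40, 27.5 ± 2.14 and 29.1 ± 13.2 CPM (SD, n = 3). P2ry12, an ADP receptor of resting microglia, was at 15.6 ± 2.88, 9.77 ± 2.66 and 10.7 ± 4.99 CPM. Csf1r, the receptor for the growth factor that microglia need, was at 87.0 ± 7.70, 63.0 ± 10.5 and 74.5 ± 19.9 CPM. These means were lowest after 1 day, and Tmem119, a microglial membrane protein, at 17.7 ± 1.68, 14.3 ± 3.54 and 18.6 ± 1.57 CPM, was also lowest after 1 day. Of 7 oligodendrocyte markers 6 had a negative log2 fold change in each comparison with ad libitum, with medians of -0.36 after 1 day and -0.34 after 1 week. In each comparison 4 had an unadjusted p under 0.05, all lower, where 9.27% and 11.2% of all genes did. Of 7 endothelial markers 5 were negative in each, with medians of -0.27 and -0.07. By edgeR 0 genes of these lists passed. The part of these cells, microglia included, in the levels of Itgam and Itgb2 was not tested.

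Other leukocytes that carry beta2 integrins had few measured markers. Of 11 neutrophil markers 3 had a row, S100a8, S100a9 and Ly6g not among them, and these summed to 8.98 to 10.4, 5.60 to 10.9 and 7.77 to 10.8 CPM in the ad libitum, 1 day and 1 week groups. Of 12 T and NK cell markers 4 had a row, Cd3e, Cd3d and Cd3g not among them, with sums of 4.48 to 6.05, 2.94 to 4.20 and 2.51 to 3.97 CPM. Of 7 monocyte markers 3 had a row, with sums of 32.5 to 34.4, 29.9 to 35.1 and 26.5 to 35.0 CPM, in which Vcan, also made outside monocytes, was at 24.9 to 33.8 CPM and Ccr2, the chemokine receptor of monocytes, at 0.0818 to 0.607 CPM. Dendritic cell markers (5 of 7 measured) summed to 29.8 to 34.2, 27.0 to 35.0 and 29.8 to 32.2 CPM. In these sums Flt3 alone was at 13.2 to 19.8 CPM and H2-Aa at 0.491 to 2.46 CPM. B cell markers (3 of 6 measured) summed to 22.3 to 42.5, 9.11 to 30.0 and 24.4 to 43.6 CPM. By edgeR 0 genes of these lists passed, and the T cell receptor gene Trac, at 3.23 ± 0.587, 1.47 ± 0.434 and 1.35 ± 0.560 CPM, had an unadjusted p under 0.05 after 1 day and after 1 week. Of all genes 9.27% and 11.2% had one. Of the 4 measured T and NK cell markers 2 had a positive and 2 a negative log2 fold change after 1 day, and 1 and 3 after 1 week. DESeq2 called Trac after 1 week (adjusted p = 0.0222), and voom called none of these genes. The lowest mean of any row in the table was 9.89 counts. The part of these cells in the levels of the beta2 genes was not tested.

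Border macrophages, which line vessels and meninges, are another possible source of beta2 integrins, and blood brings leukocytes with it. The 8 border macrophage markers summed to 33.2 to 59.5 CPM in the ad libitum group, 22.7 to 36.9 after 1 day and 35.1 to 69.7 after 1 week. The 5 red blood cell genes summed to 446 to 483, 282 to 329 and 498 to 1506 CPM, with the highest sum in the third 1 week replicate, which was also the highest library for Itgad. In that library the cortical neuron markers summed to 643 CPM, against 164 to 224 CPM in the others. After 1 week 0 of 8 and 0 of 5 passed by edgeR, while Cd163 and Lyve1, and Hbb-bs and Hbb-bt, had an unadjusted p under 0.05, all higher. Of all genes 11.2% had one there. Of the 8 border macrophage markers 5 had a positive and 3 a negative log2 fold change after 1 week, and 1 and 7 after 1 day. The 5 red blood cell genes were all positive after 1 week and all negative after 1 day. DESeq2 called Cd163, the haemoglobin scavenger receptor (adjusted p = 0.0240), and voom called none. Cd163 was at 2.59 ± 1.16, 3.29 ± 1.45 and 6.87 ± 2.03 CPM in the 3 groups, and Mrc1, the mannose receptor, at 7.31 ± 2.58, 4.90 ± 1.58 and 9.01 ± 3.58 CPM. The median log2 fold change of these lists was -0.61 and -0.56 after 1 day, where that of Itgad was 1.68, and 0.20 and 0.85 after 1 week. Between 1 week and 1 day, where that of Itgad was 0.92, the medians were 0.97 and 1.39. All 8 border macrophage markers and all 5 red blood cell genes had a positive log2 fold change there, and 6 and 5 of them had an unadjusted p under 0.05, while edgeR, DESeq2 and voom called none. Of all genes 5.22% had one there. The red blood cell genes summed to 498, 623 and 1506 CPM in 1 week replicates 1, 2 and 3, so these genes share 1 high library. The part of these cells, or of cortical RNA, in the level of Itgad was not tested.

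**Figure D5:**
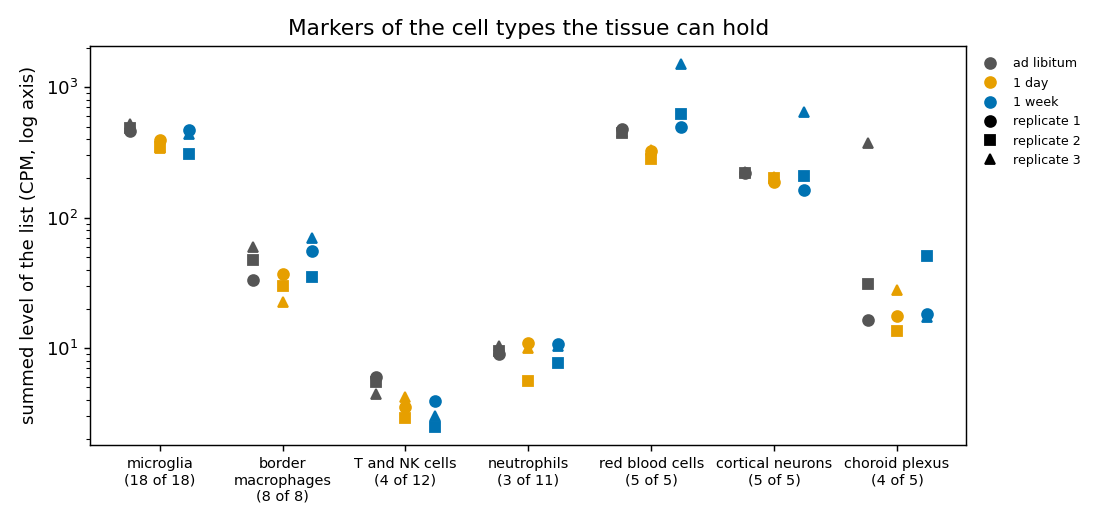
Summed CPM of marker lists (vertical axis, log scale) for cell types that the tissue can hold (horizontal axis, with the number of listed genes measured), by group colour and replicate mark. Microglia markers lie at 343 to 395 CPM after 1 day and 466 to 522 CPM in ad libitum libraries, and red blood cell and cortical markers are highest in the third 1 week replicate.

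Among the other integrins no subunit passed edgeR's test against ad libitum. By edgeR 0.0584% of all genes passed after 1 day and 0.307% after 1 week, so 0 calls are likely in this and each of the next lists. An unadjusted p under 0.05 was reached by 9.27% and 11.2% of all genes. Of 13 measured alpha genes 0 passed, with medians of -0.04 after 1 day and 0.13 after 1 week, and Itga8 (higher) and Itga6 (lower) had an unadjusted p under 0.05 after 1 week. Of 6 measured beta genes 0 passed, with medians of -0.13 and -0.07, and Itgb4 (lower) had an unadjusted p under 0.05 after 1 day. DESeq2 and voom called none of the 19. Itga4, an alpha chain by which leukocytes enter tissue, was at 9.10 ± 0.502, 7.77 ± 0.829 and 10.3 ± 4.24 CPM in the ad libitum, 1 day and 1 week groups (SD, n = 3). Itgb1, the beta chain of most integrins outside leukocytes, was at 72.4 ± 6.46, 79.7 ± 22.5 and 75.2 ± 3.19 CPM.

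Ligands of beta2 integrins did not pass edgeR's test either. Of 15 measured 0 passed, with medians of -0.20 after 1 day and 0.09 after 1 week. Icam2, Jam2, Jam3 and Ager after 1 day, and Icam2, Jam2, Ccn1, Ccn2 and Ager after 1 week, had an unadjusted p under 0.05. Icam2, an adhesion molecule of resting endothelium, was at 2.04 ± 0.622, 0.808 ± 0.191 and 1.29 ± 0.225 CPM in the 3 groups, and DESeq2 called it lower after 1 day (adjusted p = 0.0142, against 0.197 by edgeR). Ccn2, a matrix protein, was at 6.99 ± 2.20, 11.3 ± 5.44 and 27.7 ± 18.0 CPM, and DESeq2 called it higher after 1 week (adjusted p = 0.000846, against 0.192 by edgeR). Voom called none. Icam1, the inflammatory counterpart of Icam2, was at 3.70 ± 0.444, 3.44 ± 1.35 and 3.79 ± 0.623 CPM, and Vcam1, a ligand of the Itgad receptor, at 24.4 ± 5.26, 22.9 ± 0.688 and 26.9 ± 8.23 CPM, and both means differed from ad libitum by less than the ad libitum SD.

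No gene that switches beta2 integrins on was called, which is likely for any list of this length at the shares given above. Of 14 activators and adaptors 0 passed by edgeR, DESeq2 or voom, with medians of -0.07 after 1 day and 0.01 after 1 week, and Apbb1ip alone had an unadjusted p under 0.05, lower in both comparisons. Fermt3, the kindlin of blood cells, was at 4.30 ± 0.619, 3.72 ± 0.212 and 4.40 ± 1.32 CPM, and Tln1, the talin that binds integrin tails, at 107 ± 11.9, 95.4 ± 11.1 and 108 ± 12.5 CPM. Of 14 genes that signal below the receptors 0 passed by any of these tools, with medians of -0.23 and -0.08. Of them 13 had a negative log2 fold change after 1 day, and Tyrobp, Fcer1g, Rac2 and Pik3cg were among those with an unadjusted p under 0.05 there, while 0 did after 1 week. Tyrobp, an adaptor of microglial receptors, was at 6.34 ± 0.586, 3.70 ± 1.06 and 4.71 ± 1.18 CPM in the 3 groups. Syk, the kinase it recruits, was at 3.90 ± 0.506, 3.56 ± 0.623 and 3.48 ± 0.776 CPM.

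Of 8 transcription factors of leukocyte genes 0 passed by edgeR, DESeq2 or voom, with medians of 0.05 after 1 day and 0.23 after 1 week. Spi1, which encodes PU.1, the master regulator of myeloid cells, was at 3.02 ± 0.0687, 2.05 ± 0.300 and 2.26 ± 0.496 CPM and had an unadjusted p under 0.05 after 1 day. Runx1, a regulator of blood cell formation, was at 2.02 ± 0.347, 2.31 ± 0.292 and 2.88 ± 0.156 CPM, and Cebpa, a regulator of myeloid cells, at 8.85 ± 1.57, 9.69 ± 1.75 and 12.1 ± 1.67 CPM, each with an unadjusted p under 0.05 after 1 week. Irf8, a factor of microglia and monocytes, was at 5.24 ± 1.05, 4.10 ± 0.499 and 4.43 ± 1.09 CPM.

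The core letters bound by PU.1 and by Runx factors and the glucocorticoid response element were looked for in the promoters. A link between the levels of Spi1 and Itgam was not tested. Promoters of Itgam and Itgax, 2 of the 5 genes, were matched in the RefSeq table (GRCm38.p6). The 250 bases before the Itgam start, chr7:128062390-128062639 on the plus strand, hold GAGGAA or its reverse complement at 2 places, shown in capitals.
Itgam: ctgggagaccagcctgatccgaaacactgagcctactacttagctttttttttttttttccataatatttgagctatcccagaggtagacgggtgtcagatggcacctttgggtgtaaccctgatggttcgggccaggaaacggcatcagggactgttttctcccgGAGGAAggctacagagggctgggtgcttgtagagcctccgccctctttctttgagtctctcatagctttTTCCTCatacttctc
Searched on both strands, GAGGAA occurs in 23.3% of 32851 promoters of that length, and the Itgax promoter does not hold it. The Runx core TGTGGT, present in 14% of promoters, and the glucocorticoid response element, present in 0.387%, were in neither. A match of letters describes the sequence and is not a binding site.

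None of the measured neighbours of Itgad was called, which is likely for any genes so few. By edgeR 0.0584% of all genes passed after 1 day, 0.307% after 1 week and 0% between the fasted groups. Of the 10 protein-coding genes on each side in the RefSeq gene order (GRCm38.p6), 17 of 20 were measured, and 0 passed edgeR's test in any of the 3 comparisons. Their log2 fold changes after 1 week ran from -0.67 to 1.42 with a median of -0.06. The highest was that of Trim72 (SE 0.52, edgeR adjusted p = 0.341), a gene with a mean of 0.431 CPM. Itgax lies next to Itgad on one side with Itgam behind it, and Cox6a2 lies on the other side (log2 fold change 0.28, SE 0.78 after 1 week).

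Genes that ran most like each member over the 9 libraries were ranked by Pearson's r of log2 CPM among 13946 genes. The same 9 libraries serve every gene and hold the differences between groups, so these values describe likeness alone. The closest to Itgad were Nfkbia, the inhibitor of NF-kB (r = 0.984), Cdkn1a, a cell cycle inhibitor (0.983), Plin4, a lipid droplet coat protein (0.975), Slc24a4, a cation exchanger (0.975), and Hif3a, a hypoxia-inducible factor subunit (0.973). Nfkbia was at 16.0 ± 0.851, 31.4 ± 9.01 and 41.5 ± 4.19 CPM in the ad libitum, 1 day and 1 week groups (SD, n = 3). Plin4 was at 17.2 ± 5.08, 109 ± 36.9 and 199 ± 52.8 CPM and Hif3a at 7.39 ± 1.77, 22.2 ± 8.67 and 46.4 ± 9.28 CPM. None of these 5 genes was on a list of leukocyte markers or of integrin partners. All 20 lists together hold 190 genes, few beside the 13946 ranked, so absence from them was likely for any 5 genes. The cell source of Itgad was not tested.

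Itgam was closest to Apbb1ip, the adaptor that links Rap1 to talin and so activates integrins (r = 0.987), and next to Slc40a1, the iron exporter (0.976), Tnfrsf19 (0.963), Zfp979 (0.961) and Aldh3b1 (0.958). Apbb1ip was at 6.11 ± 0.605, 4.59 ± 0.580 and 4.26 ± 0.765 CPM in the 3 groups. Among the closest to Itgb2 were Plod1, a collagen lysyl hydroxylase (0.975), Cyth4, an exchange factor of blood cells (0.968), Mthfsl (0.957) and Irak4 (0.955), and Cyth4 was at 11.1 ± 0.608, 8.49 ± 2.14 and 8.60 ± 1.87 CPM. Among the closest to Itgal were Anxa4, an annexin (0.959), Pgghg (0.932), Sema3e (0.932) and Slc16a6 (0.925). Between members, Itgam and Itgb2 had r = 0.876, and 0.853 between their deviations from the group means. For Itgad and Itgam these were -0.814 and -0.548, and for Itgad and Itgb2 -0.607 and -0.227.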

How the data were processed

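The authors deposited estimated counts per gene for 9 libraries, held as whole numbers and not scaled to depth. The submitters' processing notes name Salmon, DESeq2 1.40.2 and the builds GRCm39 and mm39, while no annotation or row filter was found in the labels or headers. Per the labels' protocols, polyA RNA went into a directional library kit. Here the counts were fitted with edgeR 4.0.16 (R 4.3.3) across all libraries with TMM scaling, filterByExpr (minimum count 10, minimum total 15, which removed 56 rows), robust quasi-likelihood F tests, two-sided, and Benjamini-Hochberg adjustment over 20535 genes at 0.05. SEs come from the F statistics. DESeq2 1.42.0 and limma 3.58.1 (voom) served as alternatives, beside other scaling and filters, a replicate block and fits without each library. The edgeR and DESeq2 fits, but not voom, were tested on simulated counts with known changes. There edgeR called 10 unchanged genes after 1 day and 12 after 1 week, and DESeq2 called 47 and 55. Of 67 genes changed 2-fold edgeR recovered 73.1% and 65.7%, and DESeq2 83.6% and 77.6%. A call by DESeq2 without edgeR is thus less certain than its adjusted p reads. Over all pairs of libraries the chi-square per gene was at least 26.4, so none was a copy of another. Log2 CPM for likeness had a prior count of 2.

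The members and the 20 gene lists were chosen with earlier results of these data known. The text names the members, genes among the first 4 of a list in its written order, genes among the 5 likest per member (some are not reported here), neighbours of Itgad, and listed genes that a tool or an unadjusted p picked out, which were named after their values were seen. Of the 20 lists, those of endothelial cells, astrocytes, oligodendrocytes, dopaminergic and cortical neurons and choroid plexus served as tissue checks. By edgeR 0 of their genes passed, at most 4 per list and comparison had an unadjusted p under 0.05, and DESeq2 called Mag and Opalin, of oligodendrocytes, lower in both fasted groups, as voom did for Mag in both and for Opalin after 1 week. Transcripts and promoters are of GRCm38, not the build named for the counts, and serve for sequence, length and gene order.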

Additional observations from a re-analysis of the deposited data

How the results depend on the processing

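Over up to 17 alternative fits per gene, 184 of 201 fold changes kept direction and side of the threshold. Most of these were not called in the main fit and stayed so. The only called result, Itgad after 1 week, passed in 10 of 17 alternative fits, and all 7 lost calls were of this result. The count of beta2 genes past the test after 1 week fell from 1 to 0 with the replicate block (Itgad 2.56, adjusted p = 0.0616) and ranged from 0 to 1 over the fits without 1 library. After 1 day it rose from 0 to 1 under DESeq2 and under voom with quality weights. Same-numbered libraries of different groups correlated at -0.243 to 0.411 in their deviations from group means, and differently numbered ones at -0.329 to 0.270. The medians were -0.050 and -0.0057. Pairing by number was thus not evident, but these values cannot exclude it. The replicate block moved the calls over all genes from 12 to 2 after 1 day and from 63 to 32 after 1 week. DESeq2 called 187 and 467 genes there and voom 93 and 296.

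Direction turned for Itgal after 1 week under voom (-0.57) and with the replicate block (-0.0806), and it ranged from -1.60 to 0.82 over the fits without 1 library. Between 1 week and 1 day it turned for Itgam under voom (0.10), with a range from -0.37 to 0.23 over fits without 1 library or without both second fasted replicates. For Itgb2 that range was -0.00155 to 0.37. The cause was not tested. Itgal is not among the genes at 1 CPM or more in 6 libraries, so that filter gives no value for it. CPM without TMM moved none of the 12 levels by more than 1 SD, and ratios within a library cannot change with it. Depth limits Itgal, at 7 to 101 reads, and Itgad in ad libitum mice, at 29 to 32.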
